A study of Mus musculus with 10 samples.

Results

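The cytochrome P450 family 2 (Cyp2) is a large group of haem enzymes of the liver, and its genes were examined here in mice with chronic liver injury. Members were the RefSeq mouse genes whose symbol starts with Cyp2 and a letter. RefSeq lists 71 such symbols, 48 of them protein coding. Of the 21613 genes that array probes could be named for, 46 were members, measured by 59 probes. The other 25 symbols matched no probe and were not analysed here. The protein-coding ones among them are Cyp2a5, Cyp2c40, Cyp2c69 and Cyp2j12, and the rest are pseudogenes.

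Liver RNA came from 10 male TG221 mice, which carry a miR-221 transgene on a B6D2F2 background. The promoter that drives the transgene is not given in the sources used here. In every mouse, 20% (v/v) CCl4 in olive oil was given by gavage 3 times weekly over 14 weeks, beginning at an age of 4 to 6 weeks, and livers were collected at the 24-week end-point. The 4 mice of the CCl4 group had nothing else, and 6 mice had 300 mg/kg metformin each day in addition, beginning 3 weeks into the CCl4 course. The labels give liver as the tissue and hepatocellular carcinoma as the cell type, without saying how much tumour a sample held. There were no mice without CCl4 and none without the transgene. The metformin arrays shared 1 slide and the CCl4 arrays another, which means that an effect of the slide and one of metformin cannot be told apart. All CCl4 arrays and those of metformin mice 1 and 2 lay in row 1 of their slide. Those of metformin mice 3 to 6 lay in row 2. A comparison with the slide row as a covariate is therefore one of metformin mice 1 and 2 with the CCl4 mice. Nothing shows that the mice came from separate litters or cages, so p-values measure the spread between these mice.

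Cyp2 enzymes sit in the endoplasmic reticulum, take electrons from P450 oxidoreductase or cytochrome b5, and insert oxygen into drugs, solvents, steroids and fatty acids. In the liver they are hepatocyte enzymes, many of them restricted to the zone around the central vein, and Cyp2e1 is the enzyme that turns CCl4 into the radical that injures the cell. The mouse has many more Cyp2 genes than people do, because the Cyp2a, Cyp2b, Cyp2c, Cyp2d and Cyp2j subfamilies have multiplied into clusters of similar copies. Copies of a cluster can have different substrates, sex patterns and inducers, and an array probe designed to one copy can also bind another.

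Levels are given as log2 of the processed spot intensity with the array's 75th percentile set at 0, so a level belongs to 1 probe and is compared only between mice. A log2 fold change compares metformin plus CCl4 with CCl4 alone, with its standard error (SE), and a call is a Benjamini-Hochberg adjusted p below 0.05 in limma over all 22183 tested features. Of the 46 members, 38 passed the filter on dim probes and were tested. The 8 that did not pass were Cyp2a22 (well above background on 1 of 6 metformin arrays and 0 of 4 CCl4 arrays), Cyp2c65 (0 of 6 and 1 of 4), Cyp2b13, described with the Cyp2b genes, and Cyp2ab1, Cyp2b19, Cyp2b23, Cyp2j11 and Cyp2w1, which were well above background on no array. With metformin 10 were called higher, 11 lower and 17 were not called, and scaling to spike-in transcripts in place of the 75th percentile moved these counts to 1 higher and 15 lower (2.63% and 39.5% of members, beside 4.21% and 43.7% of all features). That scaling took 0.554 off every log2 fold change (-0.554) and moved the median of all features from 0.10 to -0.45, so directions below are relative to the bulk of the transcripts.

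Over all features 28.0% were called higher and 17.4% lower, against 26.3% and 28.9% of the tested members. The median log2 fold change was 0.10 for the members and 0.10 for all features. The levels of the 2 groups did not overlap for 14 members, 7 higher and 7 lower, which is 36.8% of them beside 33.7% of all features. Only Cyp2d37-ps, Cyp2g1 and Cyp2u1 were called with a change of at least 2-fold, 3 of 38 members, where 11.0% of all features were. The share called higher was near that of the array. The share called lower was above it at this scaling, whichever mouse was left out. So it was with quantile normalization (31.6% against 19.6%) and with median scaling (28.9% against 18.6%). It was below that of the array with spike-in scaling (39.5% against 43.7%) and with the slide row of the array as a covariate (10.5% against 13.8%). The latter compares only 2 metformin mice with the CCl4 mice. No difference in share was tested. Some members called lower moved closely together over the mice, so the counts are not of independent genes. The SD of the difference in log2 level was 0.0612 for Cyp2j13 with Cyp2j8 and 0.0950 for Cyp2d22 with Cyp2d9. The other scalings and the fits with 1 mouse left out use these same arrays. At the 75th percentile scaling members were called in both directions, and with spike-in scaling nearly all calls were lower, as over the whole array.

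**Figure D1:**
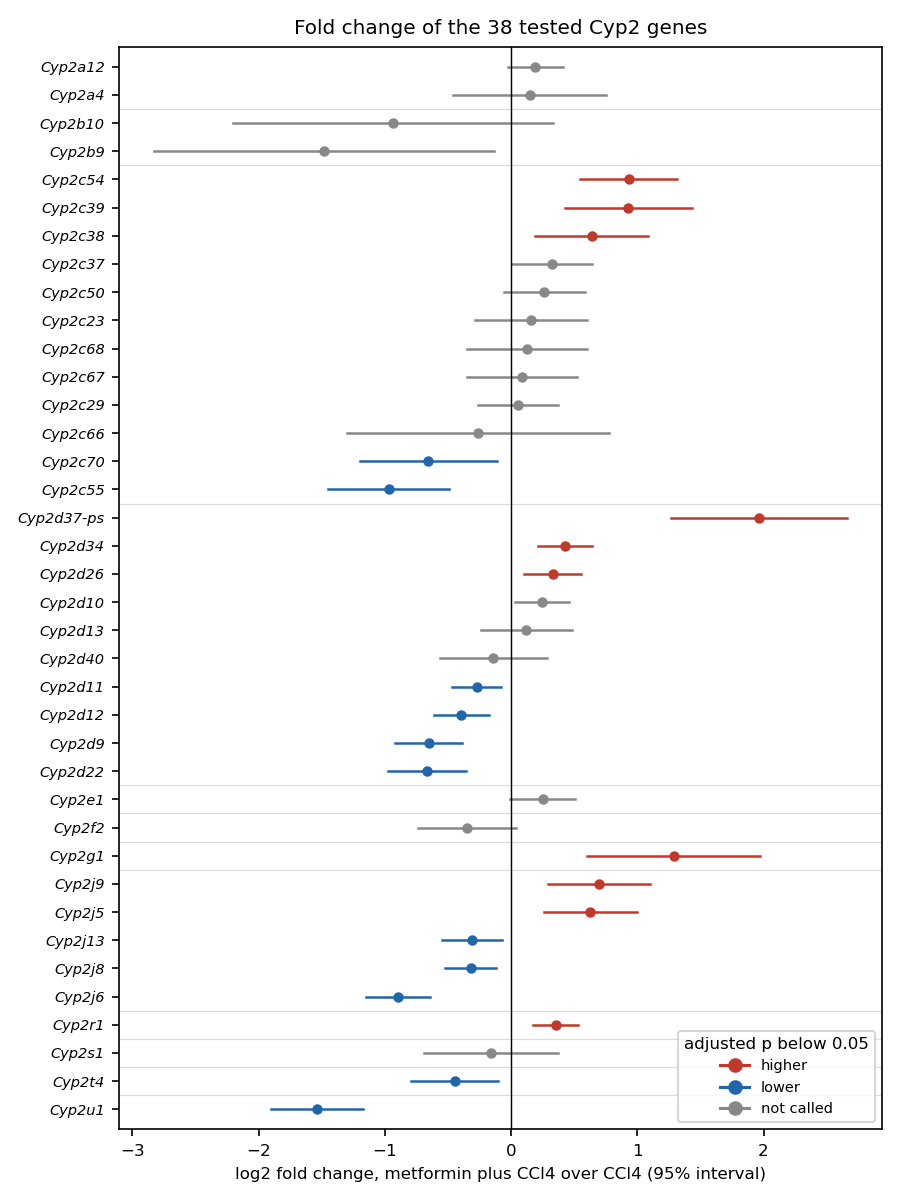
Each line is 1 of the 38 tested Cyp2 genes, grouped by subfamily, with its log2 fold change (metformin plus CCl4 over CCl4, x axis) as a point and the 95% interval as a bar; red genes were called higher, blue lower and grey not called. The points run from -1.54 for Cyp2u1 to 1.97 for Cyp2d37-ps, both directions occur within the Cyp2c, Cyp2d and Cyp2j subfamilies, and scaling to spike-in transcripts would move every point by -0.554.

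All 26 hepatocyte markers were well above background on every array. Tat, Fga, Cps1 and Apoa1 were called lower (4 of 26) and F2 higher, and their summed level on the linear scale, in units of the array's 75th percentile, was 14365 to 19072 with metformin and 16359 to 20230 without. Of the markers of other liver cells, those called lower were 8 of 12 for stellate cells and myofibroblasts (summed level 79.9 to 136 against 125 to 178), 5 of 13 for macrophages (61.7 to 112 against 95.2 to 118), 4 of 8 for bile duct cells (2.55 to 11.1 against 7.21 to 13.9, with 1 higher), 3 of 10 for endothelial cells (56.7 to 93.7 against 80.9 to 96.1) and 5 of 10 for neutrophils (146 to 182 against 122 to 184, with Csf3r higher; 10.68 to 47.9 against 34.8 to 71.4 over the 9 markers without Csf3r). Of all features, 28.0% were called higher and 17.4% lower. No tested marker was below background on every array. The part of these cell types in the results on Cyp2 genes was not tested, and in whole liver fewer cells of a type and less RNA per cell cannot be told apart.

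Upstream sequence was also looked at, because the copies of a cluster share letters in some windows and not in others. RefSeq promoter windows (GRCm38.p6) were found for 41 members, 29 of them tested, in 43 entries, and 6 letter patterns were looked for on both strands upstream of the start. The TATA box letters TATAAA lay in 18 of 43 member entries (41.9%) and in 12.4% of all 32851 entries. The HNF4A-type letters CAAAGTCCA lay in 6 member entries (14.0%) and in 0.384% of all. All 6 belong to Cyp2c genes of 1 cluster (Cyp2c40, Cyp2c65, Cyp2c67, Cyp2c68, Cyp2c69 and Cyp2c70), so they are copies and not independent. The nuclear receptor half-site AGGTCA lay in 10 entries (23.3%, 14.0% of all), the STAT letters TTCNNNGAA in 2 (4.65%, 7.02% of all), the E-box CACGTG in 1 (2.33%, 6.02% of all) and the D-box letters TTATGTAA in 0 (0.819% of all). None of these patterns contains another, and a match is a description of these letters only.

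Windows ending at the base before the RefSeq start are printed for 3 Cyp2c genes that share the CAAAGTCCA letters, for Cyp2j6, the 1 member with an E-box, and for Cyp2e1, Cyp2d9 and Cyp2d26, whose TATA letters lie close to the start. Capitals mark the pattern, and TTTATA is TATAAA on the other strand. All are on GRCm38.p6 and read 5′ to 3′ along the gene's own strand. Cyp2c67 is at chr19:39649043-39649172 on the minus strand, Cyp2c68 at chr19:39741102-39741231 on the minus strand, and Cyp2c70 at chr19:40187287-40187416 on the minus strand. Cyp2j6 is at chr4:96553652-96553781 on the minus strand, Cyp2e1 at chr7:140763689-140763818 on the plus strand, Cyp2d9 at chr15:82452247-82452376 on the plus strand and Cyp2d26 at chr15:82794246-82794375 on the minus strand.
Cyp2c67: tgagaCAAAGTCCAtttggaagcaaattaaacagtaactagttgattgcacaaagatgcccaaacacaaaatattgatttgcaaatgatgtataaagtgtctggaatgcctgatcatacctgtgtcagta
Cyp2c68: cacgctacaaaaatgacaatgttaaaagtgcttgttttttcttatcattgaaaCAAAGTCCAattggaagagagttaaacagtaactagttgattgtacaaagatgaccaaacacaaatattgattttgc
Cyp2c70: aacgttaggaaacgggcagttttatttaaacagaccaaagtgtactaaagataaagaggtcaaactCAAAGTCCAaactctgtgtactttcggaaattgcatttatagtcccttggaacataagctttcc
Cyp2j6: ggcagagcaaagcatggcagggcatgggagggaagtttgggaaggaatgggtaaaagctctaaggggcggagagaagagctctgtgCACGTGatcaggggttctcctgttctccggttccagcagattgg
Cyp2e1: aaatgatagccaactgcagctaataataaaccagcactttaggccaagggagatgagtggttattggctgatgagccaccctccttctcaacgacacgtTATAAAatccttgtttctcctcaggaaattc
Cyp2d9: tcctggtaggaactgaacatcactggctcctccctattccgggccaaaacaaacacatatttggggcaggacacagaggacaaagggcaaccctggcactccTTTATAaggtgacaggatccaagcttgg
Cyp2d26: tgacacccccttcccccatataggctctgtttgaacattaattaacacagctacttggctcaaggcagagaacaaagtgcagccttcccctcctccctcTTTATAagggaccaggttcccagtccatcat

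Cyp2e1, the enzyme that activates CCl4, was not called. Its levels were 9.48, 9.86, 9.83 and 9.61 in the 4 CCl4 mice, and ran from 9.75 through a median of 9.97 to 10.17 with metformin. The groups overlapped. Metformin and CCl4 mice differed by 0.25 on the log2 scale (SE 0.116, 95% interval -0.006 to 0.508, limma adjusted p = 0.101), and it turned to -0.30 with spike-in scaling. A second Cyp2e1 probe gave 0.23 (limma adjusted p = 0.246).

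The Cyp2c cluster holds fatty acid and steroid hydroxylases, several of which make epoxides from arachidonic acid. Of 12 tested Cyp2c genes, 3 were called higher (Cyp2c54, Cyp2c39 and Cyp2c38), 2 lower (Cyp2c55 and Cyp2c70) and 7 not, with fold changes from -0.97 to 0.93 and a median of 0.14. No Cyp2c gene called higher was still called with spike-in scaling, which left Cyp2c54 at 0.38, Cyp2c39 at 0.37 and Cyp2c38 at 0.08.

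Cyp2c54, a copy expressed around the central vein, had levels of 5.45, 5.86, 5.87 and 5.78 in CCl4 mice. With metformin the lowest level was 6.28, the median 6.67 and the highest 7.18. Every metformin mouse was above every CCl4 mouse, and the log2 fold change was 0.93 (SE 0.174, limma adjusted p = 0.00168), which is 1.91-fold. The 2 other kept Cyp2c54 probes gave -0.20 and 0.20 and neither was called, so the mean of its 3 probes was 0.31 (adjusted p = 0.148 in limma).

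Cyp2c39, a retinoic acid hydroxylase, had levels of 1.89, 2.11, 2.07 and 2.16 in CCl4 mice. With metformin they ran from 2.42 through a median of 2.89 to 3.61. The groups did not overlap, and the log2 fold change was 0.93 (SE 0.227, limma adjusted p = 0.00741). Its neighbour Cyp2c38 rose by 0.64 on the log2 scale, a call that was lost without CCl4 mouse 1 (limma adjusted p = 0.0717), mouse 3 (0.0590) or mouse 4 (0.0555). Among metformin mice, Cyp2c29, Cyp2c38 and Cyp2c39 were highest in mice 1 and 3 (7.52 and 7.58, 7.13 and 7.50, 3.46 and 3.61).

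Cyp2c55, an arachidonic acid hydroxylase that phenobarbital-type drugs induce through the nuclear receptor CAR, went the other way. Levels were 0.44, 0.97, 0.43 and 0.87 in CCl4 mice and ran from -1.02 through a median of -0.26 to 0.19 with metformin. The groups did not overlap. Cyp2c55 fell by 0.97 on the log2 scale (SE 0.217, limma adjusted p = 0.00460), and with the slide row of the array as a covariate it was -0.87 with an adjusted p of 0.0524 in limma.

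Cyp2c70, which hydroxylates chenodeoxycholic acid to make the muricholic acids of mouse bile, was only just called lower. Its levels were 7.90, 8.19, 8.23 and 8.39 in CCl4 mice, and with metformin they ran from 6.76 through a median of 7.60 to 8.20. Metformin mouse 6 at 8.20 lay within the CCl4 range and mouse 3 at 6.76 was lowest. The log2 fold change was -0.66 (SE 0.245, limma adjusted p = 0.0492). The call was lost without metformin mouse 1, 2, 3 or 5 or without any of the 4 CCl4 mice, with fold changes of -0.75 to -0.51 and adjusted p of 0.0529 to 0.115 in limma.

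**Figure D2:**
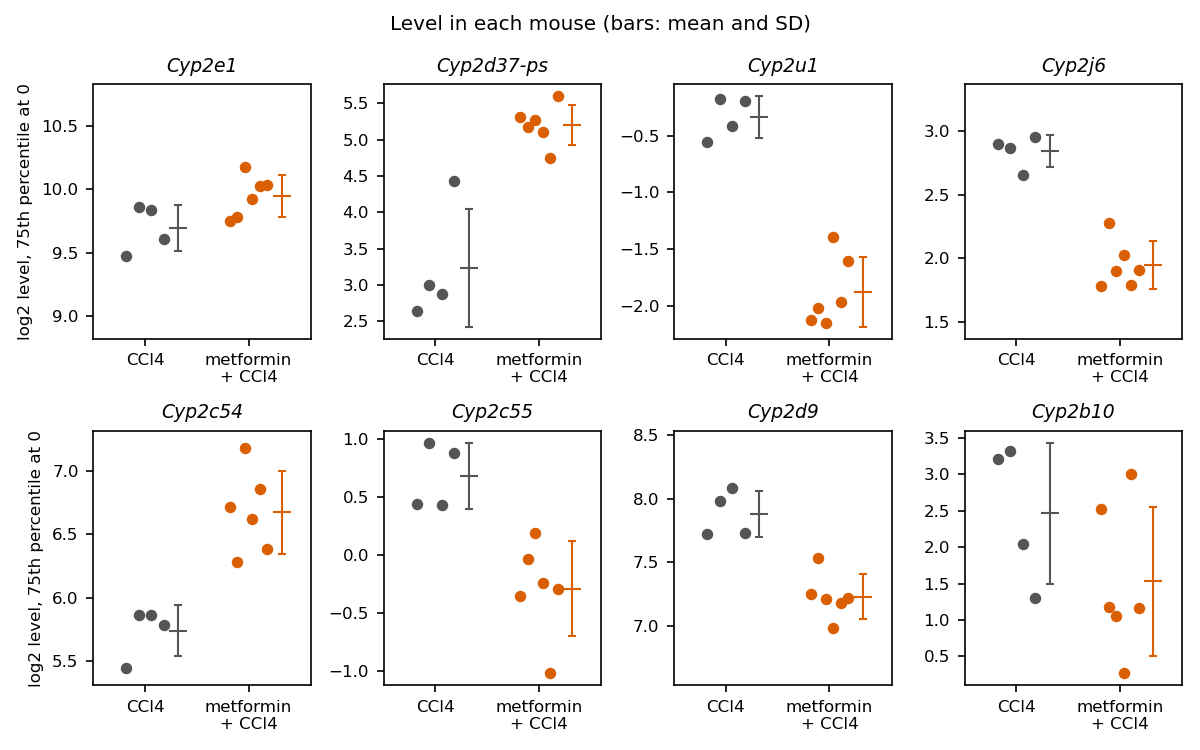
Each panel shows 1 Cyp2 gene, with the log2 level (75th percentile of the array at 0, y axis) of the 4 CCl4 mice in grey and the 6 mice with metformin and CCl4 in orange; the cross bar and whiskers are the mean and SD, and the y axes differ. Cyp2e1 and Cyp2b10 overlap between the groups, Cyp2d37-ps, Cyp2u1, Cyp2j6, Cyp2c54, Cyp2c55 and Cyp2d9 do not, and CCl4 mouse 4 stands at 4.43 for Cyp2d37-ps.

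The 7 uncalled Cyp2c genes ran from -0.26 (Cyp2c66) to 0.32 (Cyp2c37), and 6 of them were above 0. Spike-in scaling turned all 6 of these to below 0. Cyp2c29, a retinoid and fatty acid hydroxylase, had a log2 fold change of 0.05 with a 95% interval of -0.263 to 0.368. Cyp2c67 and Cyp2c68, which share the CAAAGTCCA letters, were at 0.08 and 0.13. Cyp2c70 has the same letters and was only just called lower (limma adjusted p = 0.0492). A difference between these genes was not tested. Cyp2c66 was well above background on 4 of 6 metformin arrays and on 3 of 4 CCl4 arrays, and without metformin mouse 3 its fold change was 0.10 in place of -0.26.

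The Cyp2d cluster holds drug and steroid hydroxylases, among them the male-predominant steroid hydroxylase Cyp2d9. Of 10 tested Cyp2d genes, 3 were called higher (Cyp2d37-ps, Cyp2d34 and Cyp2d26), 4 lower (Cyp2d22, Cyp2d9, Cyp2d12 and Cyp2d11) and 3 not, and with spike-in scaling Cyp2d34 (-0.13) and Cyp2d26 (-0.22) turned negative. The median was -0.01.

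The largest rise among the tested members was in Cyp2d37-ps, which RefSeq annotates as a transcribed pseudogene. Its levels were 2.64, 3.00, 2.88 and 4.43 in CCl4 mice, so mouse 4 stood above the other CCl4 mice. With metformin they ran from 4.74 through a median of 5.22 to 5.60, above every CCl4 mouse. On the log2 scale the rise was 1.97 (SE 0.315, limma adjusted p = 0.000723), which is 3.91-fold. It was called under every alternative with a test, from 1.41 to 2.36. The authors' deposited table, which kept probes by FDR and fold change, gives 1.86 for this probe as the difference of group means.

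Cyp2d22, the mouse gene often set beside human CYP2D6, was lower with metformin. CCl4 mice were at 5.65, 6.02, 5.93 and 5.82, and metformin mice ran from 4.81 through a median of 5.19 to 5.56. The groups did not overlap, and the log2 fold change was -0.67 (SE 0.140, limma adjusted p = 0.00324). With the slide row as a covariate it was -0.42 (adjusted p = 0.0603 in limma).

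Cyp2d9 had levels of 7.72, 7.98, 8.08 and 7.73 in CCl4 mice and of 6.98 to 7.53, with a median of 7.22, with metformin. Every metformin mouse was below every CCl4 mouse. Its log2 fold change was -0.65 (SE 0.119, limma adjusted p = 0.00154). On slide row 1 alone, with 2 metformin mice, it was -0.49 (adjusted p = 0.0667 in limma).

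The remaining called Cyp2d genes changed little. Cyp2d12 (-0.39) and Cyp2d11 (-0.27) had no overlap between the groups, whereas Cyp2d26 (0.33, -0.22 with spike-in scaling) did. The call of Cyp2d11 was lost without metformin mouse 4 (limma adjusted p = 0.0547), CCl4 mouse 2 (0.0919) or CCl4 mouse 3 (0.0794). That of Cyp2d26 was lost without CCl4 mouse 1 (0.0639) or mouse 3 (0.0664). With the slide row as a covariate none of these 3 was called (limma adjusted p of 0.121, 0.0984 and 0.0543).

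Cyp2d34 was the 1 member whose probes were called in opposite directions. Its representing probe A_51_P217395 had levels of 5.16, 5.21, 5.20 and 4.94 in CCl4 mice and ran from 5.33 through a median of 5.57 to 5.69 with metformin. That is a log2 fold change of 0.43 (SE 0.0973, limma adjusted p = 0.00497). The other probe, A_55_P2041350, had levels of 3.59, 3.81, 3.88 and 3.64 in CCl4 mice and ran from 2.74 through a median of 3.02 to 3.43 with metformin, a fold change of -0.68 (adjusted p = 0.00186 in limma over all kept probes). Neither probe overlapped between the groups, and the mean of both gave -0.13, so the direction of Cyp2d34 depends on the probe.

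Probe by probe, that second Cyp2d34 probe moved over the mice with Cyp2d9 and Cyp2d22 and not with the first Cyp2d34 probe. The difference in log2 level between the second Cyp2d34 probe and the Cyp2d9 probe had an SD of 0.0484 over the 10 mice, the smallest of all 212 pairs of kept probes within a subfamily. With Cyp2d22 the SD was 0.0688. Other tight pairs of different genes were Cyp2c67 with Cyp2c68 (0.0525), Cyp2j13 with Cyp2j8 (0.0612) and Cyp2c37 with Cyp2c50 (0.0717). The 11 pairs of probes of 1 gene had SDs of 0.102 to 1.25 with a median of 0.219, and the 201 pairs of different genes a median of 0.502. These SDs are a description over the same 10 arrays. The probes' own sequences were not used here, and whether a probe also binds a neighbouring copy was not tested.

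**Figure D3:**
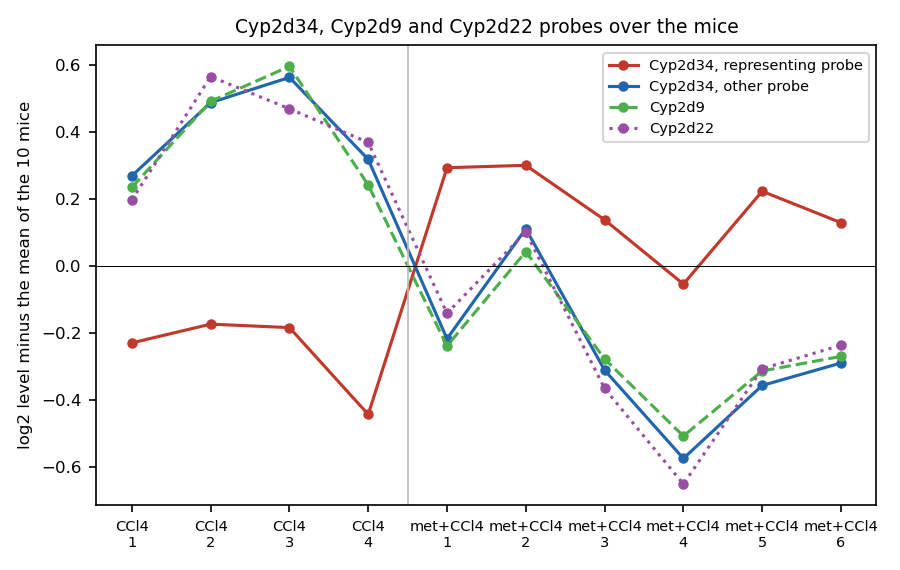
Log2 level minus the mean of the 10 mice (y axis) is plotted for each mouse (x axis, 4 CCl4 mice left of the line and 6 metformin plus CCl4 mice right of it) for the 2 kept probes of Cyp2d34 and the probes of Cyp2d9 and Cyp2d22. The second Cyp2d34 probe follows Cyp2d9 (SD of the difference 0.0484) and Cyp2d22 (0.0688), all 3 lower with metformin, while the representing Cyp2d34 probe is higher in every metformin mouse, a direction that turned with spike-in scaling.

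Of the 38 tested members, 29 rested on 1 kept probe and 9 on more (19 probes). Taken singly, 45.2% of all kept probes on the array were called. Both probes of Cyp2j6 were called lower (-0.90 and -0.80) and both of Cyp2r1 higher (0.35 and 0.46). Both probes of Cyp2c38 were called higher but differed in size: 0.64 for the representing probe and 2.67 (SE 0.460) for A_52_P468564, which was well above background on 3 of 4 CCl4 arrays. Its levels were -3.03, -4.09, -4.09 and -2.96 in CCl4 mice and -1.88 to 0.33, with a median of -0.96, with metformin. The probes of Cyp2a4 (0.15 and -0.13), Cyp2c37 (0.32 and 0.01) and Cyp2c67 (0.08 and -0.07) were not called.

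**Figure D4:**
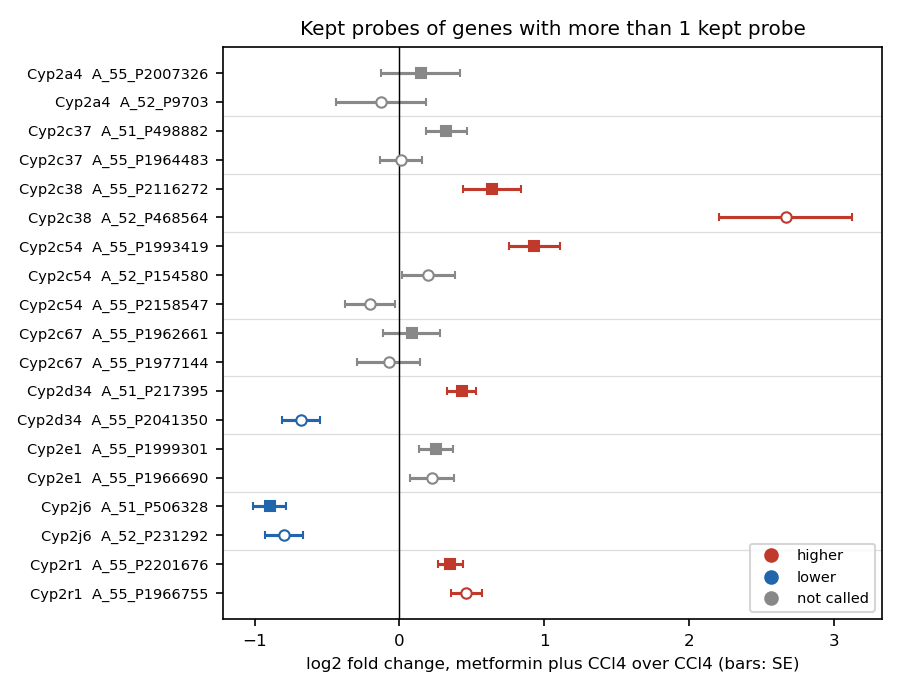
Each line is 1 kept probe of a gene with more than 1 kept probe (9 genes, 19 probes), with its log2 fold change (x axis) and SE as a bar; filled squares are the probes that represent their gene, open circles the others, and colours give the call. The Cyp2d34 probes lie on opposite sides of 0 (0.43 and -0.68), the Cyp2c38 probes are at 0.64 and 2.67, and only the representing one of 3 Cyp2c54 probes was called; scaling to spike-in transcripts would move every point by -0.554.

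The Cyp2j genes code for arachidonic acid epoxygenases and fatty acid hydroxylases, and all 5 tested ones were called. Cyp2j9 and Cyp2j5 were higher, and Cyp2j6, Cyp2j8 and Cyp2j13 were lower; with spike-in scaling the first 2 stayed above 0 but were not called (0.14 and 0.07). In their order on chromosome 4 the 3 lower genes lie side by side among the tested ones, followed by the 2 higher ones.

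Cyp2j6 was at 2.90, 2.87, 2.66 and 2.95 in CCl4 mice and ran from 1.78 through a median of 1.90 to 2.28 with metformin. All metformin mice were below all CCl4 mice. For Cyp2j6 the log2 fold change was -0.90 (SE 0.114, limma adjusted p = 0.000197), and under every alternative with a test it was called, from -1.45 to -0.76. Its promoter window is the 1 member window with CACGTG.

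Cyp2j9 had levels of 1.43, 1.80, 2.23 and 2.13 in CCl4 mice and of 2.27 to 2.90, with a median of 2.55, with metformin. The groups came close but did not overlap, and the log2 fold change was 0.70 (SE 0.182, limma adjusted p = 0.0102). Cyp2j5, an epoxygenase also known from the kidney, was at 0.48, 0.32, -0.10 and 0.46 in CCl4 mice. With metformin it ran from 0.55 through a median of 0.92 to 1.22. Its log2 fold change was 0.63 (SE 0.165, limma adjusted p = 0.0104), and with the slide row as a covariate 0.46 (adjusted p = 0.129 in limma).

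Cyp2j8 was at 5.005, 5.015, 4.787 and 5.112 in CCl4 mice and ran from 4.56 through a median of 4.63 to 4.83 with metformin. Metformin mouse 2 at 4.83 lay above CCl4 mouse 3 at 4.79, the only overlap. This gave a log2 fold change of -0.32 (SE 0.0906, limma adjusted p = 0.0154). Cyp2j13 moved with it over the mice and was at -0.31 (limma adjusted p = 0.0358), a call lost without metformin mouse 1, 3, 5 or 6 or CCl4 mouse 1, 2 or 4 (adjusted p of 0.0577 to 0.0977 in limma). With the slide row as a covariate neither was called (-0.24 and -0.23, limma adjusted p of 0.137 and 0.235).

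**Figure D5:**
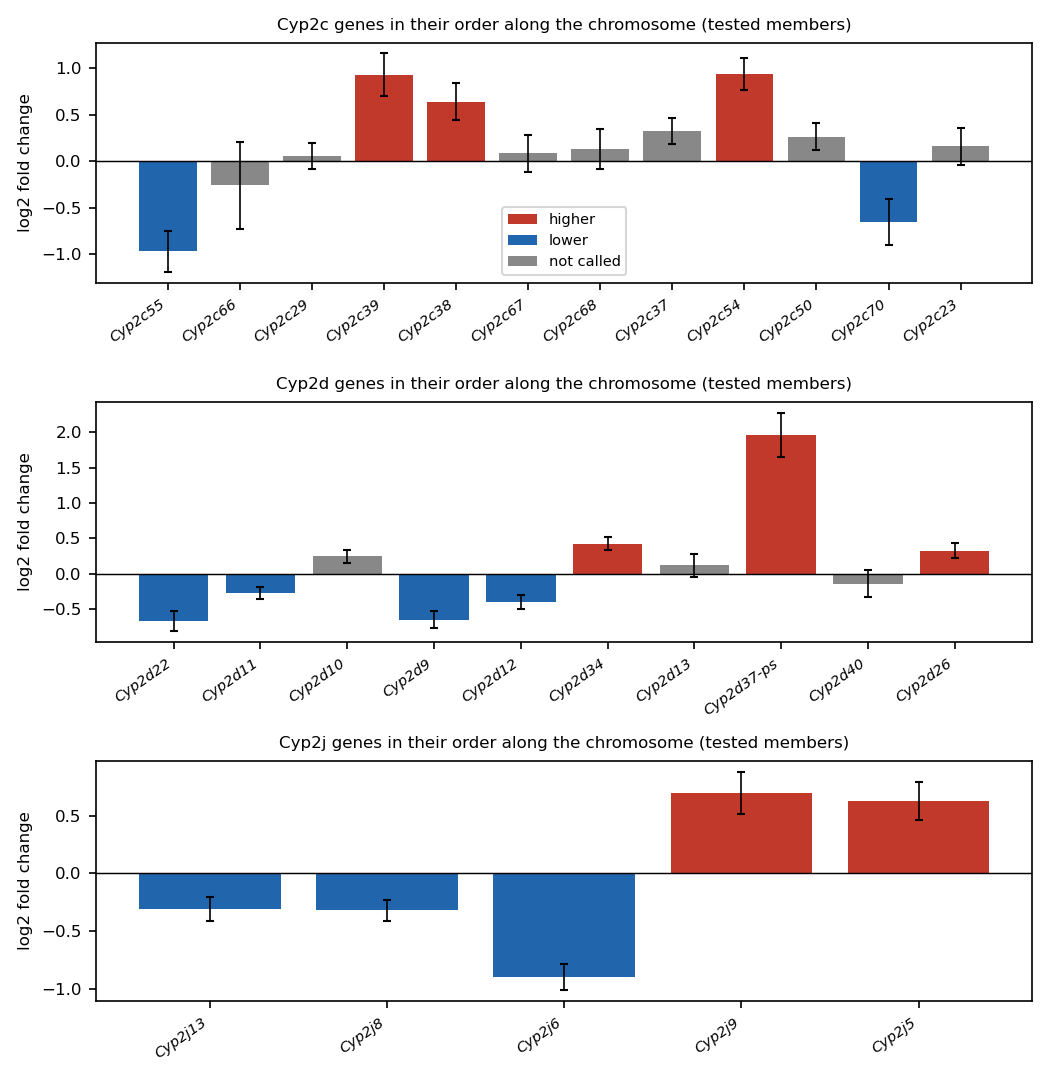
Bars give the log2 fold change (y axis, with SE whiskers) of the tested genes of the Cyp2c (chromosome 19), Cyp2d (chromosome 15) and Cyp2j (chromosome 4) clusters in their RefSeq order; red was called higher, blue lower and grey not called. Each cluster holds bars of both directions, such as Cyp2c54 (0.93) and Cyp2c70 (-0.66), Cyp2d12 (-0.39) and Cyp2d34 (0.43, but -0.13 with spike-in scaling), and Cyp2j6 (-0.90) and Cyp2j9 (0.70).

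The Cyp2b genes, which code for the enzymes induced by phenobarbital through CAR, varied most between mice. Cyp2b10 was at 3.21, 3.32, 2.04 and 1.30 in CCl4 mice and ran from 0.27 through a median of 1.18 to 3.01 with metformin. Cyp2b9 was at -2.16, -1.99, -3.44 and -4.64 in CCl4 mice and ran from -5.60 through a median of -4.92 to -3.32 with metformin. Both genes were highest in CCl4 mice 1 and 2 and, within the metformin group, in mice 1 and 5. The SDs over metformin mice were 1.02 and 0.947, against a median SD of 0.275 over the tested members and 0.229 over all features.

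The log2 fold change of Cyp2b10 was -0.93 (SE 0.573, limma adjusted p = 0.206) and that of Cyp2b9 -1.48 (SE 0.607, limma adjusted p = 0.0689), so neither was called. Cyp2b9 was well above background on only 2 of 6 metformin arrays and on 3 of 4 CCl4 arrays, and it passed the filter through the CCl4 group alone. Its fold change therefore depends on signals near background, and with another background correction (normexp) it was -0.42. Cyp2b10 was called lower with spike-in scaling (-1.49, limma adjusted p = 0.0213). Cyp2b13, a female-predominant copy, was well above background on 4 of 6 metformin arrays and 0 of 4 CCl4 arrays. It did not pass the filter, and its metformin mean of -3.87 was at least 1.62-fold above the CCl4 background bound (measured CCl4 mean -4.85).

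The Cyp2a genes code for steroid and coumarin hydroxylases. Both tested ones, Cyp2a12 (0.19) and Cyp2a4 (0.15), were not called, and both turned negative with spike-in scaling (-0.36 and -0.41). Cyp2a4, a female-predominant testosterone hydroxylase, was highest in CCl4 mouse 3 (8.36) and metformin mouse 3 (8.24), while the other 8 mice ran from 7.02 to 7.92. Its second probe was also highest in those mice, at 6.96 and 6.50. Cyp2a5, of the same subfamily, matched no probe, and whether the Cyp2a4 probes also bind it was not tested.

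Cyp2u1, a long-chain fatty acid hydroxylase, had the largest fall among the called members. Its levels were -0.55, -0.17, -0.42 and -0.19 in CCl4 mice and ran from -2.15 through a median of -1.99 to -1.39 with metformin. The groups stood well apart, and the log2 fold change was -1.54 (SE 0.165, limma adjusted p = 9.08e-05), which is 2.91-fold lower. It was called under every alternative with a test, from -2.09 to -0.99. The authors' deposited table, which kept probes by FDR and fold change, gives -1.55.

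Cyp2g1, best known as an olfactory mucosa P450, was at -1.37, -2.50, -1.72 and -2.50 in CCl4 mice and ran from -1.66 through a median of -0.64 to -0.16 with metformin. Only metformin mouse 5 at -1.66 fell within the CCl4 range. The log2 fold change was 1.29 (SE 0.309, limma adjusted p = 0.00669), and with spike-in scaling 0.74 (adjusted p = 0.0798 in limma). Cyp2r1, a vitamin D 25-hydroxylase, was at 3.058, 2.982, 3.036 and 3.101 in CCl4 mice and ran from 3.24 through a median of 3.40 to 3.52 with metformin. All metformin mice were above all CCl4 mice, with a small log2 fold change of 0.35 (SE 0.0813, limma adjusted p = 0.00544) that turned to -0.20 with spike-in scaling. With the slide row as a covariate it was 0.30 (adjusted p = 0.0559 in limma).

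Cyp2t4 was at -1.87, -1.78, -2.10 and -2.15 in CCl4 mice and ran from -2.83 through a median of -2.36 to -2.03 with metformin. The groups overlapped through metformin mouse 5 at -2.03. Its log2 fold change was -0.45 (SE 0.155, limma adjusted p = 0.0377), with normexp background correction it was -0.24 (adjusted p = 0.128 in limma), and on slide row 1 alone -0.77 (adjusted p = 0.0164 in limma). With no filter on dim probes it was not called (adjusted p = 0.0696 in limma). The call was lost without metformin mouse 1, 2, 4 or 6 or CCl4 mouse 1, 2 or 3 (adjusted p of 0.0516 to 0.107 in limma). Cyp2f2, a naphthalene-oxidising enzyme that in liver marks the zone around the portal vein, was at -0.35 (limma adjusted p = 0.125). It was called lower with quantile normalization (-0.43, limma adjusted p = 0.0465) and with spike-in scaling (-0.90, 0.00236). Cyp2s1 was at -0.16 and was not called.

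Grouped by function, the tested members had calls in both directions or few calls at the 75th percentile scaling. Of 13 tested arachidonic acid epoxygenases and hydroxylases 5 were called higher and 4 lower, with a median of 0.26 (28.0% and 17.4% of all features), and with spike-in scaling 0 were called higher and 4 lower. Of 5 tested Cyp2 genes of the zone around the central vein, only Cyp2c54 was called, and it was higher, a call not kept with spike-in scaling. Of 6 tested genes known to be inducible through CAR, Cyp2c54 was called higher and Cyp2c55 lower. Of 4 tested female-predominant genes 1, Cyp2g1, was called higher. Both tested male-predominant genes, Cyp2d9 and Cyp2u1, were called lower (beside 17.4% of all features), and a change in sex pattern was not tested. The Cyp2d9 call was lost on slide row 1 alone. Its probe moved over the mice with that of Cyp2d22 (SD of the log2 difference 0.0950). These lists overlap, and they were chosen with earlier results of these data known.

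Genes that serve the P450 enzymes moved in both directions as well. Por, the reductase that passes electrons to every microsomal P450, was at 6.58, 6.38, 6.58 and 5.64 in CCl4 mice and ran from 5.72 through a median of 6.80 to 6.98 with metformin. Its log2 fold change was 0.26 (SE 0.281, limma adjusted p = 0.468; -0.29 with spike-in scaling). Of 8 tested electron transfer partners, Cyb5a, cytochrome b5, was called higher (0.48, limma adjusted p = 0.00655), as was Cyb5r4 (0.36, 0.00295), and both turned negative with spike-in scaling (-0.07 and -0.19). With the slide row as a covariate Cyb5a was not called (0.26, limma adjusted p = 0.111). Cyb5r3, the cytochrome b5 reductase, was lower at -0.50 (limma adjusted p = 0.00317).

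Of 12 tested genes of haem synthesis and breakdown, 8 were not called. Urod, an enzyme of haem synthesis, was called higher at 0.57 (limma adjusted p = 0.00029), which spike-in scaling reduced to 0.01. Hmox1 and Hmox2, the haem oxygenases, were lower at -0.94 and -0.32 (limma adjusted p of 0.00263 and 0.0123).

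Among 25 tested regulators of Cyp2 transcription, 12 were called higher and 2 lower (beside 28.0% and 17.4% of all features). Their median was 0.54 beside 0.10 for all features. The 6 with the largest change were Ppara (1.96), the fatty acid receptor, Nfe2l2 (1.76), the oxidative stress factor NRF2, Tef (1.71) and Dbp (1.67), clock-output factors that bind D-boxes, Foxa2 (1.68), a pioneer factor of liver genes, and Nr1h4 (1.53), the bile acid receptor FXR. All 6 kept their direction and call with spike-in scaling. The others called higher lost the call with it: Foxa1 (0.74), Foxa3 (0.48), Hlf (0.38), Nr1i3 (0.33), Stat5a (-0.01) and Stat5b (-0.06). The lower ones were Nr0b2 (-1.36), the bile acid-induced repressor SHP, and Cebpb (-0.76), an acute-phase factor. With the slide row as a covariate Dbp (1.83, limma adjusted p = 0.0574) and Nr0b2 (-1.45, 0.0544) were not called. For Dbp the levels were 6.03, 5.42, 5.15 and 3.14 in CCl4 mice and 6.25 to 7.06 with metformin, with CCl4 mouse 4 standing lowest.

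Nr1i3, the gene of CAR, was at 2.14, 2.77, 3.03 and 2.69 in CCl4 mice and ran from 2.91 through a median of 3.48 to 4.27 with metformin. Its log2 fold change was 0.88 (SE 0.267, limma adjusted p = 0.0208). The call was lost with spike-in scaling (0.33, adjusted p = 0.379 in limma), with the slide row as a covariate (0.72, 0.160) and without CCl4 mouse 1 (0.0658). Nr1i2, the gene of the pregnane X receptor, was at -0.40 (limma adjusted p = 0.0666), and Hnf4a, a master regulator of hepatocyte genes, at 0.21 (0.241). Neither was called at the main scaling, and Hnf4a turned to -0.34 with spike-in scaling. Nr1i2 was called lower with spike-in scaling (-0.95, limma adjusted p = 0.00058) and with the slide row as a covariate (-0.63, 0.0362). Its call or direction also changed with normexp background correction, quantile normalization and median scaling, but not on slide row 1 alone. Whether Nr1i2 was called thus depended on the processing.

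Of the 37 tested P450 genes outside family 2, 6 were called higher and 15 lower (beside 28.0% and 17.4% of all features). Their median was -0.26, and that of the Cyp2 genes was 0.10. The difference between these sets was not tested.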

How the data were processed

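RNA of 10 livers was hybridised to 1-colour (Cy3) Agilent arrays, 1 array per mouse. The deposited spot intensity was already background-subtracted and spatially detrended by Agilent Feature Extraction 10.7.3.1, per the file headers, and not normalized between arrays. The authors also deposited log2 values of 4595 probes, quantile-normalized and kept by FDR and fold change, per the file's first line. These served as an alternative for direction only. No test was run on them, and a probe kept that way on these same arrays is not separate evidence.

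Each array held 59305 non-control spots of 55681 probes; 51.2% to 54.9% were well above background, 0 were saturated, and 135 to 179 irregular spots were left out. The 75th percentile of intensity was 237 to 363. Accessions were matched to the RefSeq table of GRCm38.p6 for names and gene order (the arrays' grid is mm9, so no gene coordinates are given). A probe was kept if well above background on 75% of the arrays of either group (29575 probes), and a gene was represented by its brightest kept probe over all 10 arrays (22183 features). The fit was limma 3.58.1 in R 4.3.3, two-sided. In data simulated with this design (22183 features) 4 calls were false. Of 100 genes made to differ 2-fold 67 were recovered, and of 100 made to differ by 0.5 (log2) 11. No other feature was made to differ there, whereas in the data 28.0% of all features were called higher and 17.4% lower. The cut-off for a call was thus stricter in the simulation, so these rates do not carry over to the data. The number of arrays limits the precision.

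The members and gene lists were chosen with earlier results of these data known. Named were Cyp2e1, up to 4 called members per subfamily by size of change, members with opposite probe calls, up to 6 called genes per partner and regulator list, and Por, Nr1i3, Nr1i2 and Hnf4a; any other gene was named after its values were seen. Mouse numbers did not pair the mice. With the group mean of each feature taken off, the deviations of same-numbered mice correlated at -0.14, -0.12, 0.085 and -0.0034. Alternatives were other background correction, scaling, filters, probe rules, slide row, array weights, the mouse number as a block, the authors' values and each mouse left out. A bound uses, per array, the higher of the probe's signal and the lowest signal well above background. Figures were drawn with matplotlib 3.10.9. One gene of the haem list is not reported here.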

Additional observations from a re-analysis of the deposited data

Results flagged for a closer look

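In 2 of 76 groups of mice (each tested member in each treatment group), 1 mouse lay far from the others; chance gives about 1 in 20 such groups. Cyp2c66 was at -6.078 in metformin mouse 3, while the other 5 metformin mice ran from -4.35 to -3.75. Cyp2j13 was at 1.526 in CCl4 mouse 3, while the other 3 CCl4 mice ran from 1.82 to 1.87.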

How the results depend on the processing

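Of the 21 called members, Cyp2d37-ps, Cyp2j6 and Cyp2u1 were called in the same direction under every alternative with a test, and Cyp2d26, Cyp2d34 and Cyp2r1 reversed under at least 1. The main counts, 10 higher and 11 lower, became 1 higher with spike-in scaling, where 4.21% of all features were higher and 43.7% lower. They became 6 and 4 with the slide row as a covariate (4225 and 3059 of all 22183 features) and 5 and 5 on slide row 1 alone (3486 and 2762 of all features). Both settings compare metformin mice 1 and 2 with the CCl4 mice and are not separate checks. The authors' deposited table holds the representing probe of 5 members, kept there by FDR and fold change. Its mean differences were above 0 for 1 and below 0 for 4, which is a count of directions and not of calls. With no filter on dim probes 12 of 46 members were higher and 7 lower (26.1% and 15.2%, against 15.6% and 9.54% of all features). The mouse number as a replicate block, which pairs no mice here, gave 5 higher and 8 lower. Those are 13.2% and 21.1% of members, against 17.9% and 12.8% of all features. The cause of these changes was not tested. Leaving out 1 mouse gave 7 to 10 lower (14.2% to 16.9% of all features), with 7 without CCl4 mouse 2 (18.4% of members, 14.2% of all features). Spike-in scaling turned Cyp2a12 to -0.36, Cyp2a4 to -0.41, Cyp2c23 to -0.40, Cyp2c29 to -0.50, Cyp2c37 to -0.23, Cyp2c50 to -0.29, Cyp2c67 to -0.47, Cyp2c68 to -0.43, Cyp2d10 to -0.31, Cyp2d13 to -0.43, Cyp2d26 to -0.22, Cyp2d34 to -0.13, Cyp2e1 to -0.30 and Cyp2r1 to -0.20. Quantile normalization turned Cyp2a4 to -0.0052, Cyp2c29 to -0.086 and Cyp2c67 to -0.040, and scaling to the median turned Cyp2c29 to -0.013. The mean of both probes turned Cyp2d34 to -0.13. The slide row as a covariate, and row 1 alone, turned Cyp2c66 to 0.24, and the replicate block turned Cyp2s1 to 0.050. Among uncalled members, Cyp2b9, Cyp2b10, Cyp2d40 and Cyp2f2 were called lower with spike-in scaling, Cyp2b9 also with array weights, the replicate block and without metformin mouse 1 or 5 or CCl4 mouse 4, Cyp2b10 with the replicate block and Cyp2f2 with quantile normalization. Cyp2c37 and Cyp2d10 were called higher with normexp, and Cyp2c37 without metformin mouse 6. With 1 mouse left out, Cyp2a4 ran from -0.0078 to 0.44, Cyp2c29 from -0.023 to 0.098, Cyp2c66 from -0.54 to 0.10, Cyp2c67 from -0.031 to 0.23 and Cyp2c68 from -0.018 to 0.30. Probes near background, such as those of Cyp2b9 and Cyp2c66, limit the reading of low members.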
